A study of Mus musculus with 6 samples.

Results

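The 10 genes described here encode transcription regulators of naive mouse pluripotency: the Krüppel-like factors Klf2, Klf4 and Klf5, the nuclear receptors Esrrb, Nr5a2 and Nr0b1, and Tfcp2l1, Tbx3, Zfp42 and Prdm14. On the array their target names are KLF2, KLF4, KLF5, ESRRB, ZFP42, TBX3, NR0B1 and NR5A2 and, for Tfcp2l1, TCFCP2L1. They were taken by name, with every probe of the array table whose target name was one of them or a synonym, which gave 15 of 46643 probes. The array carried a name for 9 of the 10 genes, and none for Prdm14. A pair of probes named CKLF, an alias of Klf5 but also the symbol of another gene, was not counted. Of the 15 probes, 11 were detected (detection p under 0.01 on at least 2 arrays), and these measured 8 genes: Klf2, Klf4, Klf5, Esrrb, Zfp42, Tbx3, Tfcp2l1 and Nr5a2.

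The samples were CCE mouse embryonic stem cells, kept without feeder cells in 15% serum with leukemia inhibitory factor (LIF), a cytokine that holds such cells in self-renewal. All were transfected with a puromycin-resistance plasmid that expressed 1 of 3 short hairpin RNAs, and puromycin at 1.5 ug/ml was given for 4 days from 18 h after transfection. The hairpins were Prmt6 shRNA1, Prmt6 shRNA2 and, as the control, an shRNA against GFP. Prmt6 is a nuclear arginine methyltransferase. Each group had 2 Illumina bead arrays, and the title of the series asks what Prmt6 does in pluripotency and reprogramming. The knockdown was transient, in 1 line, and the labels do not say whether replicates were separate cultures, so p-values measure the spread between these samples only.

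In naive embryonic stem cells LIF acts through STAT3 and Wnt through beta-catenin, and both feed a set of factors that stand beside Oct4, Sox2 and Nanog. Klf4 and Tfcp2l1 are known targets of the STAT3 branch, Esrrb is known to be released from Tcf7l1 repression by beta-catenin, and Klf2, Klf4 and Klf5 partly replace one another. As cells leave the naive state these transcripts fall, several of them early, and forced expression of single members such as Klf4, Esrrb, Nr5a2 or Tfcp2l1 can hold or restore it.

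Across the arrays, 12.4% to 23.4% of the probes were detected, and summed intensity ranged from 9399602.9 to 16105204.2. Prmt6 shRNA2 replicate 2 stood apart. On the probes with high identifiers, called the second series here, it detected 935, against 1302 to 2836 on the other arrays, and the Prmt6 shRNA2 replicates correlated at r = 0.714 across the kept second-series probes, against 0.971 across the first series. The brightest probes of the 8 measured genes all belonged to the first series. Prmt6 itself was read by second-series probes and lay below both control arrays on all 4 Prmt6 hairpin arrays (limma adjusted p = 0.082 for the average of the hairpins). Detection of its brighter probe held for both control arrays, 1 array of Prmt6 shRNA1 and 0 of Prmt6 shRNA2, so the fold with Prmt6 shRNA2 is a limit, at least 1.40-fold lower, computed against the lowest signal detected on each array. The other kept Prmt6 probe was detected on 1 control array, 1 array of Prmt6 shRNA1 and 0 of Prmt6 shRNA2, and no fold is given for it. A first-series Prmt6 probe was detected on no array.

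None of the 8 genes passed the test over all genes in any of 4 comparisons, while Klf4 came nearest. Levels below are log2 intensities after background correction and quantile normalization (neqc in limma). Differences are on the same log2 scale with limma's standard error. P-values are two-sided, adjusted by Benjamini and Hochberg over the 6539 genes tested and called under 0.05. Averaged over both Prmt6 hairpins and set against GFP shRNA, 7 of the 8 genes were at lower values, from -0.90 for Klf4 to -0.10 for Tbx3, and Klf5 was at 0.04; 46.7% of all genes were below 0. Their median was -0.41, beside 0.02 over all genes tested. By limma 0 of the 8 were called, where 1.67% of all genes were called in either direction and 0.168% were called lower. Without adjustment 3 of the 8 were lower at p under 0.05 (Klf4, Klf2 and Zfp42), against 3.87% of all genes. In 5 of the 8 (Klf2, Klf4, Esrrb, Zfp42 and Nr5a2) all 4 Prmt6 hairpin arrays lay below both GFP shRNA arrays, which held for 8.79% of all genes. These are bulk samples, in which fewer cells of a type and less RNA per cell cannot be told apart.

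**Figure D1:**
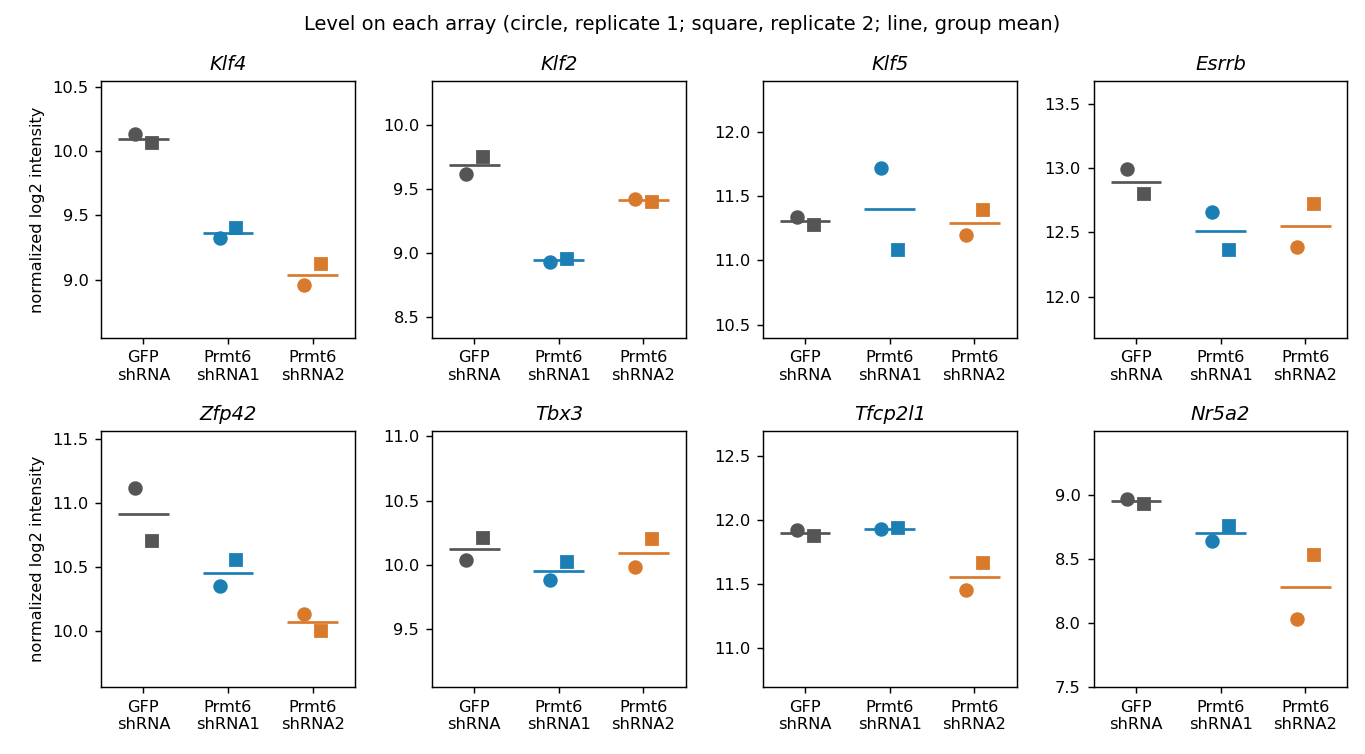
Normalized log2 intensity (y axis, a window of 2 log2 units in each panel, not starting at 0) of the brightest probe of the 8 measured genes on each of the 6 arrays, by hairpin group (x axis); circles are replicate 1, squares replicate 2 and lines group means of 2 arrays. Klf4, Klf2, Esrrb, Zfp42 and Nr5a2 show all 4 Prmt6 hairpin arrays below both GFP shRNA arrays, and Klf5, Tbx3 and Tfcp2l1 do not.

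Klf4 (chr4:55527137-55532475, GRCm38.p6), a zinc-finger factor used with Oct4, Sox2 and Myc to reprogram somatic cells, was the member with the lowest value relative to the control on average and with Prmt6 shRNA2, while with Prmt6 shRNA1 Klf2 was as low (both -0.74). The intensities of its brightest probe were 1338.5 and 963.7 on the GFP shRNA arrays, 424 and 845.7 on those of Prmt6 shRNA1, and 590 and 407.1 on those of Prmt6 shRNA2. After normalization the levels were 10.14 and 10.06, then 9.32 and 9.40, then 8.96 and 9.12. The 3 groups did not overlap on this scale, with GFP shRNA highest and Prmt6 shRNA2 lowest. The share of all genes with 3 groups apart, in this or another order, was not computed. The group means were 10.10 ± 0.05, 9.36 ± 0.06 and 9.04 ± 0.11 (SD, n = 2 each). With both hairpins Klf4 was 1.86-fold lower than with GFP shRNA (log2 -0.90 ± 0.15, 95% interval -1.26 to -0.54), and this missed the threshold (limma adjusted p = 0.0519).

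Prmt6 shRNA1 alone put Klf4 at -0.74 ± 0.17 (limma adjusted p = 0.144), and Prmt6 shRNA2 alone put it at -1.06 ± 0.17 (adjusted p = 0.0596); both comparisons share the same 2 control arrays. The hairpins did not differ detectably from each other (-0.32, 95% interval -0.74 to 0.09, adjusted p = 0.483). In the average over hairpins the value of Klf4 stayed between -0.97 and -0.75 in 20 alternative settings, and it was called in 7 of them. Without GFP shRNA replicate 1 or 2 the adjusted p was 0.359 and 0.422, in fits that leave 1 control array. With the first series of probes alone, normalized by themselves, it was 0.0123, and 0.0771 when Prmt6 shRNA2 replicate 2 was left out as well.

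Klf4 had 3 probes, all detected and all in the first series. The second by brightness read 9.46 and 9.47 on the GFP shRNA arrays, 9.39 and 8.93 on those of Prmt6 shRNA1, and 8.34 and 8.62 on those of Prmt6 shRNA2. The dimmest read 8.16 and 8.25, then 7.87 and 7.80, then 6.83 and 7.52. On each of the 3 probes all 4 Prmt6 hairpin arrays lay below both control arrays, also in the intensities before normalization. The differences averaged over both hairpins were -0.90 for the brightest probe and -0.65 for the second. For Prmt6 shRNA1 alone they were -0.74, -0.31 and -0.37 from the brightest to the dimmest, and for Prmt6 shRNA2 alone -1.06 and -0.99 for the brighter pair. The probes read the same RNA and are not replicates. The dimmest probe was detected on no Prmt6 shRNA2 array, so its fold there is a limit of the same kind, at least 1.35-fold lower. When every kept probe was tested separately, none of the 3 passed with both hairpins (adjusted p over all kept probes 0.0910, 0.276 and 0.309).

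**Figure D2:**
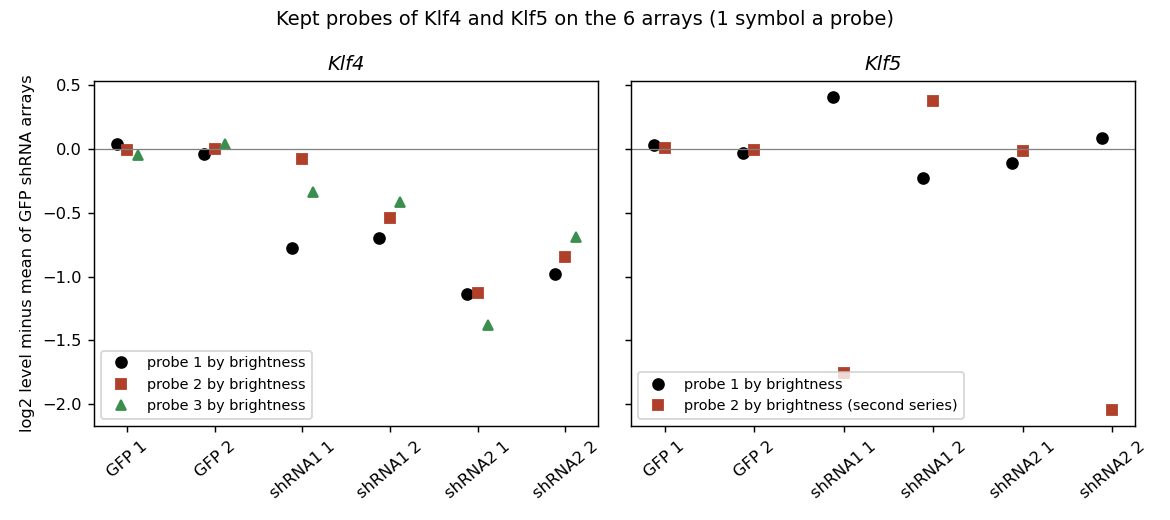
Levels of the kept probes of Klf4 (3 probes, left) and Klf5 (2 probes, right) on each of the 6 arrays (x axis), as log2 level minus that probe's mean over the GFP shRNA arrays (y axis). Every Klf4 symbol of the Prmt6 hairpin arrays lies below 0, although the dimmest Klf4 probe was not detected with Prmt6 shRNA2, and the second-series Klf5 probe drops on 1 array of each Prmt6 hairpin group while the brightest Klf5 probe does not.

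Klf2 (chr8:72319062-72321654), known in embryonic stem cells as a factor that MEK and ERK signalling destabilises, was lower mainly with the first hairpin. Its only probe read 9.62 and 9.75 on the GFP shRNA arrays, 8.93 and 8.96 on those of Prmt6 shRNA1, and 9.42 and 9.40 on those of Prmt6 shRNA2. The groups did not overlap, and here Prmt6 shRNA1 was lowest, where for Klf4 it was Prmt6 shRNA2. With Prmt6 shRNA1 Klf2 was at -0.74 ± 0.16, or 1.67-fold lower (limma adjusted p = 0.139), and with Prmt6 shRNA2 at -0.27 ± 0.16 (adjusted p = 0.424). The difference between the hairpins, 0.47 (95% interval 0.06 to 0.87), had an adjusted p of 0.373, and both Prmt6 shRNA2 arrays lay above both Prmt6 shRNA1 arrays, as for 26.2% of all genes. With both hairpins the value was -0.51 ± 0.14 (adjusted p = 0.182). Before normalization Prmt6 shRNA2 replicate 1, at an intensity of 817.2, lay between the GFP shRNA arrays at 935.9 and 786.9.

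Klf5 (chr14:99298691-99313412), which acts in both the inner cell mass and the trophectoderm, showed no detectable difference. Its brightest probe read 11.34 and 11.28 on the GFP shRNA arrays, 11.72 and 11.08 on those of Prmt6 shRNA1, and 11.20 and 11.39 on those of Prmt6 shRNA2. The Prmt6 shRNA1 arrays lay on either side of the controls and so did the Prmt6 shRNA2 arrays. The average over hairpins was 0.04 ± 0.22 (95% interval -0.50 to 0.58, limma adjusted p = 0.958), so a change of the size seen for Klf4 lies outside the interval of this probe. A second Klf5 probe, of the second series, was detected on 3 arrays and read 7.79 and 7.78, then 6.03 and 8.16, then 7.77 and 5.74. Its average over hairpins was -0.86 ± 0.78 (limma adjusted p over all kept probes 0.686), too wide a spread to leave out the value seen for Klf4. With the mean of both probes Klf5 was at -0.41 (adjusted p = 0.622), a sign opposite to that of the brightest probe. The remaining Klf5 probe was detected on no array.

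The other Klf genes were read as a list of 15 genes, of which 14 had a probe and 6 were measured: Klf3, Klf6, Klf7, Klf9, Klf13 and Klf16. By limma 0 of the 6 passed with both hairpins, and 2 had an unadjusted p under 0.05, Klf6 and Klf7, both at higher values, against 14.6% of all genes in either direction. Klf6, an immediate early factor of injury and growth signals, read 11.63 and 11.49 on the GFP shRNA arrays, 12.41 and 12.78 on those of Prmt6 shRNA1, and 12.71 and 12.98 on those of Prmt6 shRNA2. All 4 Prmt6 hairpin arrays lay above both controls, which held for 15.8% of all genes. Klf6 was at 1.16 ± 0.18, or 2.24-fold higher (adjusted p = 0.0503). For its other kept probe, only 1 array per Prmt6 hairpin passed detection, and neither control did. No fold is given for that probe, because an undetected array enters each hairpin mean.

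Klf7, known for its part in sensory neuron development, read 8.36 and 8.29, then 9.70 and 9.32, then 9.06 and 9.45, and was at 1.06 ± 0.20, or 2.08-fold higher (limma adjusted p = 0.0676). Again all 4 arrays of the Prmt6 hairpins lay above both controls. The other kept Klf7 probes, both of the second series and detected on 4 and 2 arrays, gave 0.62 and 0.07. In 20 alternative settings Klf6 was called in 7 and Klf7 in 6. The remaining measured genes of the list were Klf3 at -0.07, Klf9 at -0.08, Klf13 at 0.02 and Klf16 at -0.14. A second-series probe detected on 5 arrays gave -1.39 ± 0.90 for Klf3, and another gave -1.14 ± 0.92 for Klf9. Neither passed (limma adjusted p over all kept probes 0.585 and 0.654), and neither was detected on Prmt6 shRNA2 replicate 2. On both of these probes all 4 Prmt6 hairpin arrays lay below both controls after normalization, which held for 8.79% of all genes by their brightest kept probes. Before normalization they did not. Prmt6 shRNA1 replicate 2 then lay above the lower control, at 805.8 against 628 for Klf3 and 654 against 495.5 for Klf9. Klf13 and Klf16 were detected on 2 arrays each and on none of Prmt6 shRNA2, and the list's median was -0.03. By the brightest kept probe of each, the Klf genes stood in 3 arrangements, none of them past the test. Klf2 and Klf4 were at lower values, Klf6 and Klf7 at higher values, and the other 5 within 0.15 log2 units of the control.

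**Figure D3:**
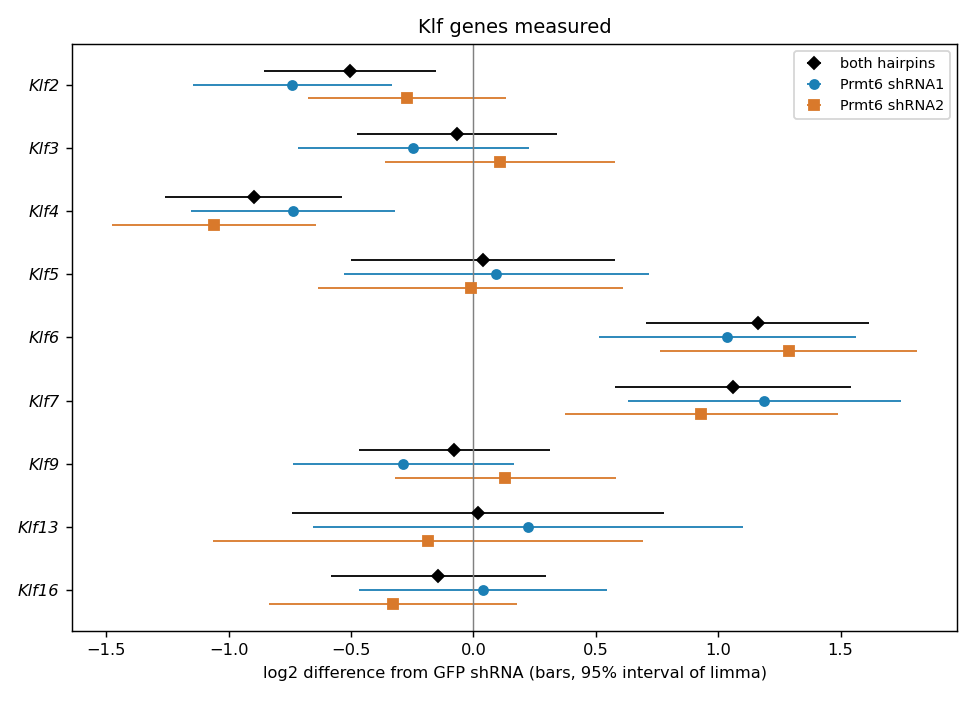
Log2 difference from GFP shRNA (x axis) of the 9 measured Klf genes (y axis) for the average of the Prmt6 hairpins and for each alone; bars are 95% intervals of limma, unadjusted. The intervals of Klf4 lie below 0 and those of Klf6 and Klf7 above 0 with each hairpin, although none of the 3 genes passed after adjustment over all genes.

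Zfp42 (chr8:43295067-43307009), also called Rex1, a zinc-finger gene used as a reporter of the naive state, was the member next lowest to Klf4 in the average over hairpins. Its only probe read 11.12 and 10.70 on the GFP shRNA arrays, 10.35 and 10.56 on those of Prmt6 shRNA1, and 10.14 and 10.01 on those of Prmt6 shRNA2. The groups did not overlap, with the order of Klf4, but the GFP shRNA arrays stood apart from each other by more than the nearest Prmt6 shRNA1 array stood from the lower of them. With both hairpins Zfp42 was at -0.65 ± 0.18, or 1.57-fold lower (limma adjusted p = 0.184). With Prmt6 shRNA1 it was at -0.46 ± 0.21 (adjusted p = 0.511) and with Prmt6 shRNA2 at -0.84 ± 0.21 (adjusted p = 0.152). Leaving out GFP shRNA replicate 1 gave -0.44 and leaving out replicate 2 gave -0.86. It was called in 1 of 20 alternatives, with genes detected on all 6 arrays (adjusted p = 0.0346). Before normalization the 1891.5 of Prmt6 shRNA1 replicate 2 lay above the lower control, at 1525.9.

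The 250 bases before the start of Zfp42 and Klf4 are shown because these were the 2 members with the lowest values averaged over hairpins, and because Oct4 and Klf4 are known to act at the Zfp42 promoter. Sequences are from RefSeq (GRCm38.p6), both on the minus strand, chr8:43307010-43307259 and chr4:55532476-55532725. Capitals mark the motifs found out of 4 searched on both strands: GGGNGTGG (Klf type), TTCNNNGAA (STAT type), AAGGTCA (nuclear receptor half-site) and ATGCAAAT (octamer).
Zfp42: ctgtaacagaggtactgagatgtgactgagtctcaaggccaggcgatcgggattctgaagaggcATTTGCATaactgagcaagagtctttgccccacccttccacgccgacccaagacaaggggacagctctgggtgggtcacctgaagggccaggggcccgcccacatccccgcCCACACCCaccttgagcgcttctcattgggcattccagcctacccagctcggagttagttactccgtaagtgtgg
Klf4: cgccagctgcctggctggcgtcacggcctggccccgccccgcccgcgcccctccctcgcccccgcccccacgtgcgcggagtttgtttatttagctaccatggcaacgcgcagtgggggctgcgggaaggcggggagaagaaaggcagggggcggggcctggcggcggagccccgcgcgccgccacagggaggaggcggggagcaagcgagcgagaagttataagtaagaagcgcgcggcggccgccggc

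The Zfp42 window held an octamer whose far end lies 186 bases before the start and a Klf-type motif at 75 bases, and these do not overlap. The Klf4 window held none of the 4 motifs in these letters, and its G and C content was 74.0%, against a median of 52.4% over all windows. Windows were at hand for 7 of the 10 members, 9 in all. The Klf-type motif was in 3 of the 9, those of Zfp42, Tfcp2l1 and the inner start of Nr5a2, against 15.9% of 32851 windows. The STAT-type motif was in 1 Esrrb window, against 7.02%, the octamer in that of Zfp42 alone, against 1.60%, and the half-site in 0, against 4.08%. A match describes the letters only.

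Esrrb (chr12:86361117-86521628), an orphan nuclear receptor at the end of the Wnt branch, was at lower values with each hairpin. Its bright probe read 12.99 and 12.80 on the GFP shRNA arrays, 12.66 and 12.37 on those of Prmt6 shRNA1, and 12.38 and 12.72 on those of Prmt6 shRNA2. All 4 Prmt6 hairpin arrays lay below both controls, while the Prmt6 hairpin groups overlapped. Esrrb was at -0.36 ± 0.19 on average, -0.38 for Prmt6 shRNA1 alone and -0.34 for Prmt6 shRNA2 alone, none past the test (limma adjusted p = 0.453, 0.62 and 0.439). The difference between hairpins was 0.04, with a 95% interval from -0.49 to 0.57. Single arrays moved these values: for Prmt6 shRNA1 from -0.24 without its replicate 2 to -0.53 without its replicate 1, and for Prmt6 shRNA2 from -0.17 without its replicate 1 to -0.51 without its replicate 2. Its intensities before normalization also lay below both controls, at 4505, 6436.8, 6172.3 and 5322.4 against 9763.7 and 6909.8. A second Esrrb probe was detected on no array.

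Nr5a2 (chr1:136842562-136960448), the receptor LRH-1, which binds the Oct4 promoter and can stand in for Oct4 in reprogramming, read 8.97 and 8.93 with GFP shRNA. The Prmt6 shRNA1 arrays read 8.64 and 8.76 and the Prmt6 shRNA2 arrays 8.03 and 8.53. The groups did not overlap and followed the order of Klf4 and Zfp42, for which no share of all genes was computed. Nr5a2 was at -0.46 ± 0.19 with both hairpins (limma adjusted p = 0.356), at -0.25 for Prmt6 shRNA1 and at -0.67 for Prmt6 shRNA2 (adjusted p = 0.819 and 0.225). The Prmt6 shRNA2 value moved between -0.92 without replicate 2 of that group and -0.41 without replicate 1. Before normalization the 532 of Prmt6 shRNA1 replicate 2 lay above the lower control, at 446.4. The other Nr5a2 probe was detected on no array.

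Nr0b1 (chrX:86191775-86195947), or Dax1, a receptor-like corepressor that binds Oct4 and Nr5a2, had 1 probe, and it was not detected on any array. Its intensities were -9.1 and -25.2 on the GFP shRNA arrays, -16.1 and 8.4 on those of Prmt6 shRNA1, and -25.1 and -36.5 on those of Prmt6 shRNA2, with the lowest detection p at 0.2402. These values are not well above background, and no fold is given. Prdm14, a PR-domain factor that keeps FGF signalling and DNA methylation low in naive cells, was not analysed here for want of a probe under its name.

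Tfcp2l1 (chr1:118627923-118685168), a grainyhead-family factor of the LIF and Wnt branches, stood on opposite sides of the control with the 2 hairpins. Its probe read 11.92 and 11.87 on the GFP shRNA arrays, 11.93 and 11.93 on those of Prmt6 shRNA1, and 11.46 and 11.66 on those of Prmt6 shRNA2. The Prmt6 shRNA1 arrays lay above the controls, which held for 23% of all genes, by less than the control arrays differed. The Prmt6 shRNA2 arrays lay below, as for 20.2% of all genes. The values were 0.04 ± 0.17 and -0.34 ± 0.17 (limma adjusted p = 0.981 and 0.367). The difference between hairpins was -0.37 (95% interval -0.79 to 0.05, adjusted p = 0.458), and the average -0.15 ± 0.15 (adjusted p = 0.7).

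Tbx3 (chr5:119670534-119684724), a T-box factor downstream of LIF signalling that is also active in primitive endoderm, read 10.03 and 10.21 on the GFP shRNA arrays, 9.88 and 10.02 on those of Prmt6 shRNA1, and 9.98 and 10.20 on those of Prmt6 shRNA2. The groups of GFP shRNA and Prmt6 shRNA2 overlapped. Tbx3 was at -0.10 ± 0.16 with both hairpins (95% interval -0.49 to 0.30, limma adjusted p = 0.828), with an interval that leaves out the value seen for Klf4.

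**Figure D4:**
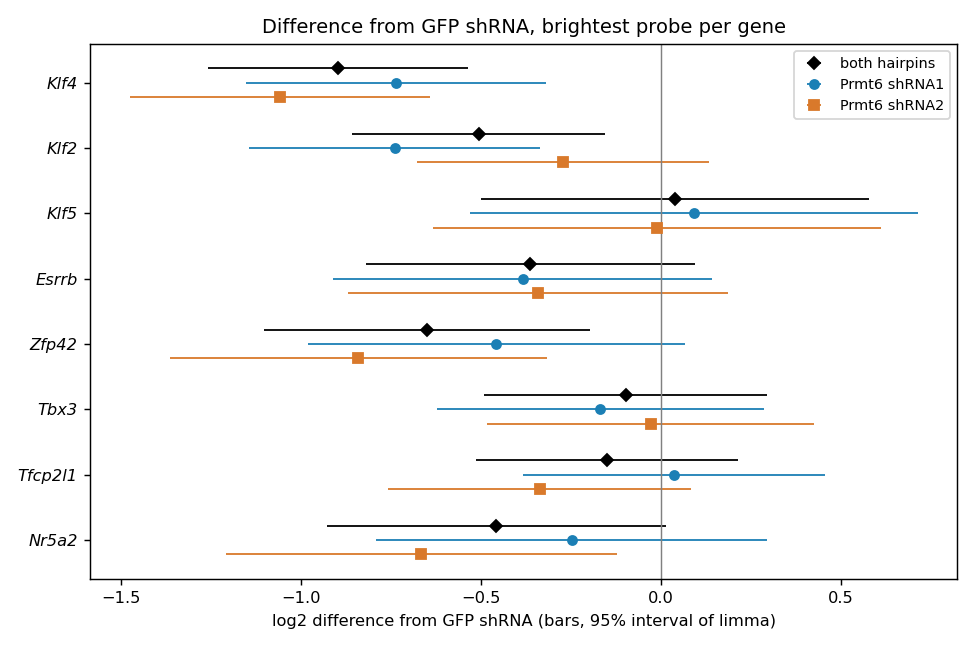
Log2 difference from GFP shRNA (x axis) of the 8 measured members (y axis) for the average of the Prmt6 hairpins and for each alone; bars are unadjusted 95% intervals of limma. Klf4 lies lowest on average at -0.90, Klf2 is lower with Prmt6 shRNA1 than with Prmt6 shRNA2, and the intervals of Klf5, Esrrb, Tbx3 and Tfcp2l1 cross 0 in each comparison.

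Taken hairpin by hairpin, 0 of the 8 genes were called with Prmt6 shRNA1 by limma, where 1.32% of all genes were called, and 2 (Klf2 and Klf4) were lower at an unadjusted p under 0.05, against 3.5% of all genes. With Prmt6 shRNA2, 0 were called against 1.04% of all genes, and 3 (Klf4, Zfp42 and Nr5a2) were lower at an unadjusted p under 0.05, against 5.29%. Both Prmt6 shRNA1 arrays lay below both controls for 6 of the 8 genes, against 19.4% of all genes, and both Prmt6 shRNA2 arrays also for 6, against 20.2%. The medians of the 8 genes were -0.32 and -0.34, beside -0.02 and 0.08 over all genes. Between the hairpins 0 of the 8 genes were called (0.398% of all genes), and 1, Klf2, had an unadjusted p under 0.05 (11.9% of all genes). Zfp42, Nr5a2, Tfcp2l1 and Klf4 had both Prmt6 shRNA2 arrays below both Prmt6 shRNA1 arrays, which held for 17.9% of all genes.

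The genes tested whose profile over the 6 arrays was most like the mean profile of the 8 members were Pip4p1, Ech1, Adk, Slc11a1 and Ccnq. The measure was the root mean square difference between profiles centred on their means, 0.04 log2 units for Pip4p1 and 0.06 to 0.08 for the others, which were picked for their closeness. Among the members the same measure ran from 0.11 for Esrrb to 0.26 for Klf2, Klf4 and Klf5.

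The pathways around the members were read as fixed lists. The members and lists were chosen with earlier results of these data known. Of the core pluripotency network, which holds Oct4, Sox2, Nanog and their partners, 13 of 18 genes were measured, 0 were called by limma, all 13 lay below 0 with both hairpins (median -0.54), against 46.7% of all genes, and 4 were lower at p under 0.05 before adjustment, against 3.87%. In 7 of the 13 all 4 Prmt6 hairpin arrays lay below both controls, against 8.79%. By their brightest probes, Oct4 (Pou5f1) was at -0.40 ± 0.20, Sox2 at -0.72 ± 0.16 and Nanog at -0.79 ± 0.32 (limma adjusted p = 0.433, 0.105 and 0.348). Other kept probes gave -0.67 ± 0.20 for Oct4, -1.19 ± 0.17 and -1.22 ± 0.18 for Nanog, and -0.43 ± 0.55 for Sox2. None passed (limma adjusted p over all kept probes 0.262, 0.0772, 0.0794 and 0.777). On these Oct4 and Nanog probes all 4 Prmt6 hairpin arrays lay below both controls, while the Sox2 probe was detected on 2 arrays. Of the LIF and STAT3 pathway 6 of 11 genes were measured, 0 were called, 3 lay below 0 and the median was 0.02. In 2 of the 6 all 4 Prmt6 hairpin arrays lay below both controls. Lowest were Gfpt2, an enzyme of hexosamine synthesis, at -0.82 ± 0.17 and the kinase Pim3 at -0.44 ± 0.18 (limma adjusted p = 0.0876 and 0.344). Stat3, the transcription factor of the pathway, was at 0.09 ± 0.15, and Socs3, its feedback inhibitor and direct target, at 0.10 ± 0.16 (limma adjusted p = 0.827 and 0.816); these 4 genes were chosen after their values were seen, and the lists were not tested against each other.

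Of the Wnt branch, 3 of 9 genes were measured (Ctnnb1, Gsk3b and Axin1) and 0 were called. The median was -0.41 on average, 0.04 for Prmt6 shRNA1 and -0.75 for Prmt6 shRNA2. Gsk3b, chosen after its values were seen, had a standard error of 0.99. Of formative and primed epiblast genes, which rise as cells leave the naive state, 6 of 14 were measured and 0 were called. With both hairpins 0 had an unadjusted p under 0.05, against 14.6% of all genes. With Prmt6 shRNA1 alone 0 did and with Prmt6 shRNA2 alone 1 did, counts given without a share of all genes and not read further. Between the hairpins 2 did, against 11.9% of all genes. The median was 0.07 on average, -0.10 for Prmt6 shRNA1 and 0.15 for Prmt6 shRNA2. Pou3f1, chosen after its values were seen, stood at 1.44 ± 0.37 with Prmt6 shRNA2 and at -0.29 ± 0.37 with Prmt6 shRNA1, a difference of 1.72 (limma adjusted p = 0.158, 0.909 and 0.196). Of 28 family relatives of the members 5 were measured and 0 were called (median 0.12). An unadjusted p under 0.05 was seen for 1 of the 5, against 14.6% of all genes. Among 9 partners and targets of Prdm14 in Polycomb repression and DNA methylation, 6 were measured and 1 fell, against 0.168% of all genes. This was Ezh2, the methyltransferase of Polycomb repressive complex 2. It read 10.34 and 10.36 on the GFP shRNA arrays, 9.12 and 9.18 on those of Prmt6 shRNA1, and 9.75 and 9.65 on those of Prmt6 shRNA2 (log2 -0.92 ± 0.14, limma adjusted p = 0.0461). Ezh2 kept its call in 9 of 20 alternatives. The list's median was -0.42.

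Markers of other cell types moved with the hairpins. Of 12 endoderm markers 7 were measured, all above 0, and 2 rose with both hairpins, where 1.67% of all genes were called: Gata4 (1.16 ± 0.17, detected on 1 of 2 control arrays) and Col4a1 (1.06 ± 0.16). By hairpin, 0 rose with Prmt6 shRNA1 and 1 with Prmt6 shRNA2, where 1.32% and 1.04% of all genes were called. Their summed normalized level was 10115 to 11357 with GFP shRNA, 17660 to 19707 with Prmt6 shRNA1 and 24813 to 26764 with Prmt6 shRNA2, with Sox7, Foxa2, Lama1, Afp and Ttr below the detection filter. Of 10 trophectoderm markers 7 were measured and 5 rose on average, against 1.67% of all genes called. Under Prmt6 shRNA1 alone 5 rose and under Prmt6 shRNA2 alone 3 did, against 1.32% and 1.04% of all genes called. Averaged over both hairpins Krt7 was at 3.26 ± 0.30, Krt18 at 3.18 ± 0.24, Krt8 at 2.77 ± 0.16 and Cldn4 at 2.02 ± 0.17. Krt7 and Krt18 were detected on 1 of 2 control arrays. Among the 7 markers the largest difference was 5.30 with Prmt6 shRNA1 and 1.99 with Prmt6 shRNA2. Compared directly, 3 of the 7 were called lower with Prmt6 shRNA2 than with Prmt6 shRNA1, where 0.398% of all genes were called. Their sum was 2559 to 2749 with GFP shRNA, 17818 to 20160 with Prmt6 shRNA1 and 5690 to 6017 with Prmt6 shRNA2, with Eomes, Elf5 and Hand1 below the filter. Of 8 fibroblast markers 2 were measured, Acta2 and Vim, of which Acta2 rose on average (2.56 ± 0.31), against 1.67% of all genes called. The collagens Col1a1, Col1a2 and Col3a1 were below the filter. Of 8 embryonic stem cell markers, all of them also in the core pluripotency list above, 6 were measured and 0 were called in any of the 4 comparisons. Their sum was 18922 to 22980, 16239 to 17369 and 14239 to 14499 in the same order. It includes Nanog by its brightest probe, which read 13.27 and 12.38 on the GFP shRNA arrays. The part of the cell type markers in the lower values of the naive genes was not tested.

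**Figure D5:**
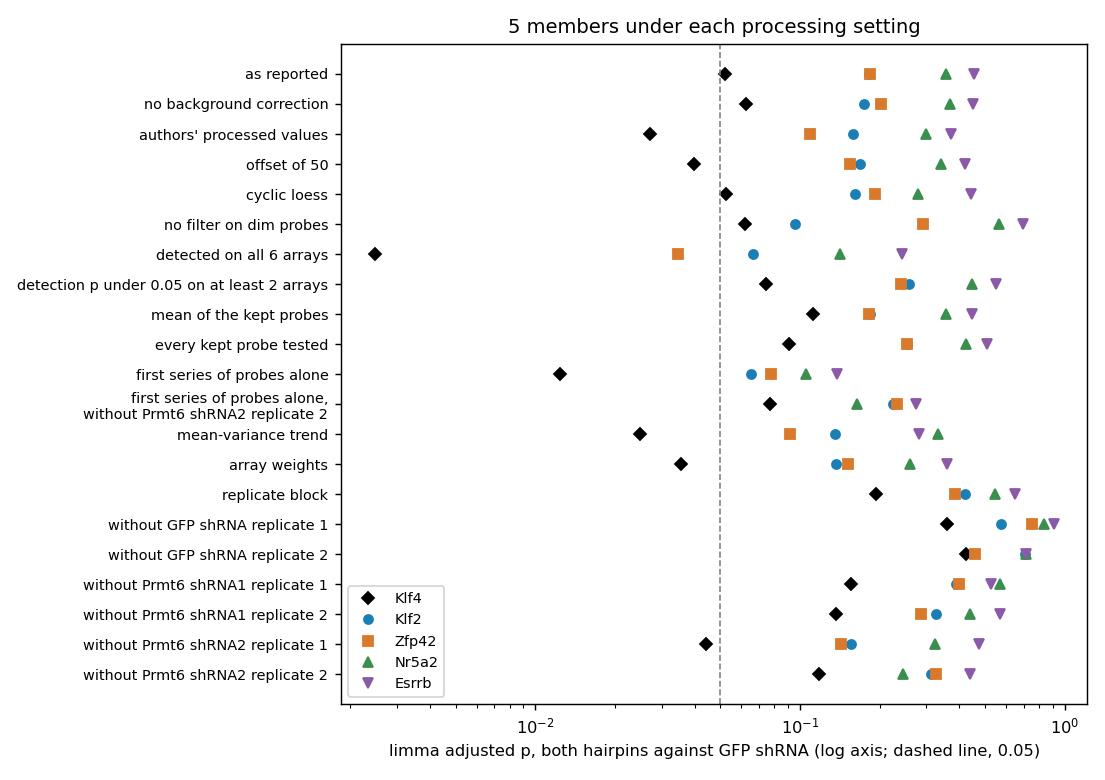
Limma adjusted p (x axis, log scale) of Klf4, Klf2, Zfp42, Nr5a2 and Esrrb with both Prmt6 hairpins against GFP shRNA, as reported and in 20 alternative settings (y axis); the dashed line is the threshold of 0.05. Klf4 lies on either side of the line depending on the setting, Zfp42 passes it once, and Klf2, Nr5a2 and Esrrb never do.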

How the data were processed

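Each array gave a mean bead intensity per probe, on a linear scale from which the authors had subtracted background, with a detection score per the file headers (a fraction from 0 to 1, read as 1 minus the detection p). The authors' deposited processed values are on a log2 scale, and the submitters' processing notes name lumi; they were used as an alternative. The array build is not given in the sources used here.

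Intensities were processed with neqc (offset 16) in limma 3.58.1 under R 4.3.3. Probes detected on at least 2 arrays were kept (9138). Names were matched to RefSeq symbols and unambiguous synonyms (34387 probes), and the brightest kept probe stood for a gene. A group-means model over all 6 arrays was fitted with lmFit and eBayes (3 residual and 2.81 prior degrees of freedom) and tested on simulated data. Other kept probes were fitted over all kept probes. An exact permutation test of 2 arrays against 2 cannot reach the threshold, so limma was used.

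Values are given for every member, Prmt6, Oct4, Sox2, Nanog, other Klf genes, genes of the lists called with both hairpins (at most 4 a list), and the 5 nearest profiles; a gene named outside this rule is said to be. Members, lists and alternatives were chosen with earlier results of these data known. Alternatives changed background correction, normalization, filter, probe choice, variance model, array weights, replicate block and arrays. Fits without an array keep the normalization of all 6.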

Additional observations from a re-analysis of the deposited data

Results flagged for a closer look

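Tfcp2l1 was the 1 member whose arrays lay on opposite sides of the control with the 2 hairpins: both Prmt6 shRNA1 arrays above both GFP shRNA arrays and both Prmt6 shRNA2 arrays below them. The difference of Prmt6 shRNA2 minus Prmt6 shRNA1 was -0.37 on the log2 scale, and limma's test of it did not pass (adjusted p = 0.458). The distance above the controls with Prmt6 shRNA1 was 0.04 on average. Both Prmt6 shRNA1 arrays lay above both controls for 23% of all genes, and both Prmt6 shRNA2 arrays below them for 20.2%. The share of all genes with both was not computed, so the pattern is not shown to be particular to Tfcp2l1.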

How the results depend on the processing

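With 2 arrays a group, the number of arrays limits what could be called. Klf4 with both hairpins was called with the authors' processed values (-0.77, adjusted p = 0.027), an offset of 50 (-0.86), detection on all 6 arrays (-0.90), the first series of probes alone (-0.97), a mean-variance trend (-0.90) and array weights (-0.90), each of which made 1 member called (2 with detection on all 6 arrays), and without Prmt6 shRNA2 replicate 1 (-0.86; 1 member). With Prmt6 shRNA1, 2 members were called with detection on all 6 arrays and 1 with the first series alone; with Prmt6 shRNA2 the counts were 2 and 1, and 1 each with the authors' values, an offset of 50 and the trend. Left-out arrays gave 0 to 1 called members with both hairpins and 0 otherwise. The genes called with both hairpins, 109 as reported, numbered 51 without background correction, 195 with the authors' values, 163 with an offset of 50, 26 without a filter, 302 with detection on all 6 arrays, 67 with detection p under 0.05, 29 with every kept probe tested, 273 with the first series alone and 36 when Prmt6 shRNA2 replicate 2 was also left out, 210 with the trend and 188 with array weights. They numbered 0 to 464 as single arrays were left out: 0 without either GFP shRNA array, and 464, of which 60.8% were lower against 10.1% as reported, without Prmt6 shRNA2 replicate 1. Falls made up 20.9% with the first series alone.

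The members' median with both hairpins, -0.41, was -0.51 with the first series alone, -0.53 when Prmt6 shRNA2 replicate 2 was also left out, and -0.47 to -0.30 without single arrays. With Prmt6 shRNA2, -0.34 became -0.43 with the mean of probes, -0.46 with the first series and -0.52 without that array as well, and -0.48 to -0.26 without single arrays. With Prmt6 shRNA1 it was -0.38 to -0.25 without single arrays. For Prmt6 shRNA2 minus Prmt6 shRNA1, -0.21 became -0.12 without a filter, -0.30 with the mean of probes, and -0.28 to -0.087 without single arrays.

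Signs turned only for values near 0. Klf5 turned with both hairpins with the mean of probes (-0.41), the first series (-0.014, or -0.034 without Prmt6 shRNA2 replicate 2) and without single arrays (-0.12 to 0.20). It also turned with Prmt6 shRNA1 with the mean of probes (-0.30) and without single arrays (-0.23 to 0.41), with Prmt6 shRNA2 with the authors' values (0.051), cyclic loess (0.0065) and without single arrays (-0.11 to 0.085), and between the hairpins (-0.42 to 0.22 without single arrays). Tbx3 with Prmt6 shRNA2 ranged from -0.14 to 0.084 without single arrays. Esrrb between the hairpins was -0.031 with cyclic loess, -0.031 and -0.13 in the first-series settings, and -0.13 to 0.21 without single arrays. With both hairpins Klf13 was -0.0033 with cyclic loess, -0.046 with the first series and -0.40 to 0.44 without single arrays, Klf3 -0.18 to 0.043 and Stat3 -0.0051 to 0.19 without single arrays. The cause was not tested.

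The replicate numbers are not known to pair the arrays. Deviations of same-numbered arrays from their group means correlated at -0.65, 0.12 and -0.36 across genes. With the replicate block, which leaves fewer degrees of freedom, 0 genes and 0 members were called with both hairpins (Klf4 -0.90, adjusted p = 0.194). Of the called markers, Gata4 kept its call in 8 of 19 alternatives, Col4a1 in 9 of 20, Acta2 in 11 of 20, Krt7 in 13 of 19, Krt18 in 15 of 19, and Krt8 and Cldn4 in 17 of 20 each.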
